A study of Triticum aestivum with 24 samples.

Results

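On chromosome 2A of bread wheat, a run of neighbouring gene models had low transcript levels in leaf sheaths of the *idd5* mutant, and its genes were described one by one over the 24 RNA-seq libraries of the study. The members are the gene models whose identifiers lie from TraesCS2A02G267900 to TraesCS2A02G277100, both included, and that had at least 0.5 TPM in at least 4 libraries. Of the 91 gene models with such identifiers, 71 passed this filter, out of 63241 gene models that passed it in the whole table. TPM is the abundance of a transcript relative to the total of its library. The members were chosen by measured values, since the ends of the interval were set from the water-treated *idd5* and Cadenza libraries of this same table, and the lower level of *idd5* against Cadenza and against *Rht-D1b* in water is therefore given as a description, with no test.

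Leaf sheath tissue was taken from 7-d-old seedlings 8 h after treatment with water or with 100 µM GA3, a bioactive gibberellin. The 3 genotypes were wild-type Cadenza, the *idd5* triple mutant and a line of Cadenza that carries the *Rht-D1b* allele, and each genotype and treatment had 4 biological replicates, numbered 1 to 4. The *idd5* mutant descends from 3 EMS-mutagenised Cadenza lines, combined by crossing, with 3 rounds of backcrossing to Cadenza. It carries stop codons in *IDD5-A1* and *IDD5-D1* and a changed splice site in *IDD5-B1*. The libraries compared *idd5* with Cadenza and not with a wild-type segregant of the same crosses, so an effect of the *idd5* mutations and of any other segment carried along in the mutant line cannot be told apart. The labels do not say whether a replicate was 1 seedling or a pool. In such whole-tissue samples, fewer cells of a type and less RNA per cell cannot be told apart.

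Bread wheat is a hexaploid with the A, B and D genomes, so most genes exist as homoeologous copies on the A, B and D chromosomes of a group. IDD5 is a zinc finger transcription factor that interacts with DELLA proteins, which repress growth until gibberellin triggers their breakdown. *Rht-D1b* encodes a DELLA protein that resists gibberellin and gives semi-dwarf plants. The identifiers of gene models are numbered in order along each chromosome, so neighbouring numbers stand for neighbouring genes. The gene descriptions at hand use another release of the gene models and matched 0 of the identifiers of the interval, so the members are given by identifier, without a function, and markers of the sampled tissue were not looked up.

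Read depth cannot be had from TPM and is unknown here, so precision comes from the 4 replicates. *IDD5-A1*, which lies on the same chromosome, is separated from the interval by 555 gene models that passed the filter. It had 9.06 ± 0.65 TPM in water-treated Cadenza and 9.28 ± 0.55 TPM in water-treated *idd5* (SD, n = 4). The *idd5* GA3 replicate 2 stood apart from the other 7 *idd5* libraries within the interval, and the summaries of the GA3-treated mutant over the members are given with and without it.

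In Cadenza, the mean level of a member over the 8 libraries ranged from 0.3 to 344 TPM, with a median of 5.27 TPM, against a median of 4.30 TPM over all 63241 gene models. The members summed to 1068 ± 31.5 TPM in water-treated Cadenza and 1048 ± 11.5 TPM in GA3-treated Cadenza (SD, n = 4). A single gene, TraesCS2A02G276100, made up 32.5% of the Cadenza sum. In *Rht-D1b* the sums were 995 ± 27.6 TPM in water and 1016 ± 21.6 TPM in GA3 (SD, n = 4). The sums in *idd5* were 216 ± 29.4 TPM in water and 112 ± 49.7 TPM in GA3 (SD, n = 4), the latter being 136 ± 9.21 TPM (SD, n = 3) without replicate 2. The highest *idd5* library had 251 TPM and the lowest library of the other genotypes 963 TPM, so the sums of *idd5* did not overlap with those of the others.

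The level that remained in *idd5* was expressed as a percentage of the mean of Cadenza in the same treatment. Counted over both treatments, 65 of the 71 members had a mean in *idd5* under 50% of Cadenza in water and in GA3, a condition that 1.11% of all gene models met. Members with at least 5 TPM in Cadenza met it in 36 of 37 cases, and gene models outside the interval at that level in 128 of 28873. With the GA3 mean taken without replicate 2, the condition was also met by 65 members, against 727 of all 63241 gene models. In water, 3 members kept less than 10% of the Cadenza level, 16 kept 10 to 15%, 27 kept 15 to 20%, 9 kept 20 to 25%, 10 kept 25 to 50% and 5 kept 50% or more, while the remaining 1, TraesCS2A02G276600, was listed at 0 in Cadenza. In GA3, 40 members kept less than 10%, 17 kept 10 to 15%, 4 kept 15 to 20%, 2 kept 20 to 25%, 3 kept 25 to 50% and 5 kept 50% or more. With the mean of GA3 replicates 1, 3 and 4, these numbers were 29, 18, 10, 5, 4 and 5. The levels in water were thus gathered between 10 and 20% of Cadenza, with 43 of 71 members in that range.

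**Figure D1:**
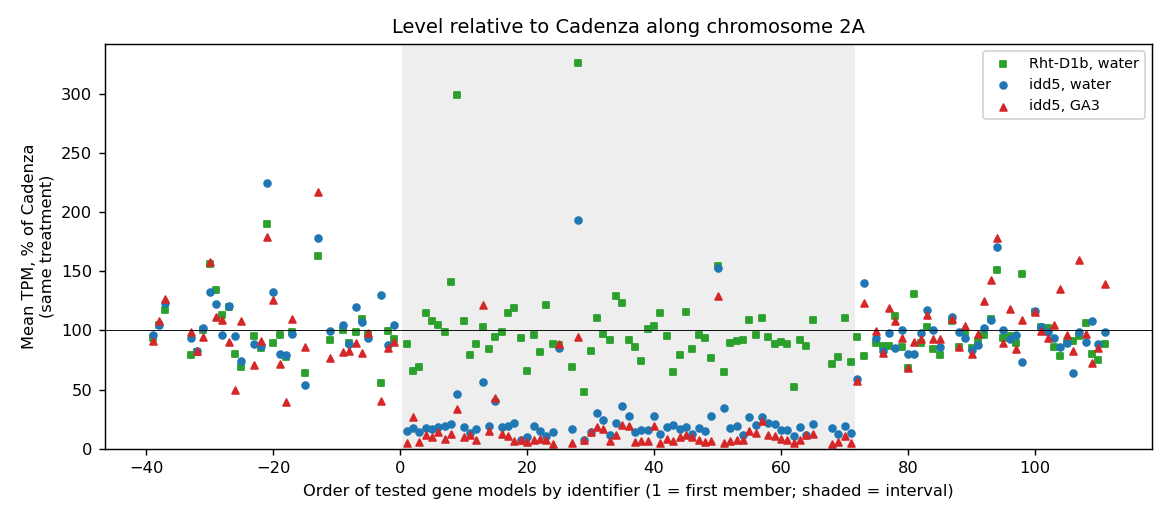
Mean TPM as a percentage of Cadenza in the same treatment (y axis) for gene models in the order of their identifiers (x axis, 1 is the first member), with at least 1 TPM in Cadenza. Inside the shaded interval the *idd5* points in water and in GA3 drop under 50% except for 4 of the 5 genes that escaped. The remaining gene that escaped is too low to be plotted. The *Rht-D1b* points, which reach 326%, and the genes outside the shading scatter around 100%.

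The genes next to the ends of the interval were as follows. On the left, TraesCS2A02G267500 had 11.2, 10.6, 11.1 and 11.5 TPM in water-treated Cadenza and 11.8, 11.7, 11 and 12 TPM in water-treated *idd5*. The first member, TraesCS2A02G267900, had 5.45, 5.28, 4.87 and 5.6 TPM in Cadenza and 0.64, 0.95, 0.96 and 0.71 TPM in *idd5*, which was 15.4% of Cadenza. Only TraesCS2A02G267600, a gene with at most 1.12 TPM in the Cadenza libraries, lay between them among gene models that passed the filter, and its mean in *idd5* was 67.7% of Cadenza. On the right, the last member, TraesCS2A02G277100, had 5.18, 5.63, 4.74 and 7.26 TPM in Cadenza and 0.46, 0.98, 0.85 and 0.77 TPM in *idd5*, or 13.4%. Its next neighbour, TraesCS2A02G277500, had 1.61, 2, 2.36 and 2.24 TPM in Cadenza and 1.14, 1.35, 1.18 and 1.19 TPM in *idd5*, and its share of 59.2% was lower than that of TraesCS2A02G277600 with 140%. The *idd5* and Cadenza libraries of TraesCS2A02G277500 did not overlap in water, and in GA3 it had 1.61, 1.82, 2.27 and 2.06 TPM in Cadenza and 0.98, 1.24, 1.11 and 1.12 TPM in *idd5*. In GA3 its log2 difference was -0.59 (standard error 0.11, adjusted p = 0.000735, limma with Benjamini-Hochberg adjustment), so that a smaller reduction was also found in this gene beyond the last member. None of the 40 gene models on each side was under 50% of Cadenza in both treatments. The 33 of these 80 that reached 5 TPM in Cadenza had a median between 90.9 and 98.5% of Cadenza in each *idd5* library.

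The member with the highest TPM was TraesCS2A02G276100. In water-treated Cadenza it had 345, 332, 349 and 328 TPM, and in water-treated *idd5* 60.0, 83.7, 60.5 and 50.4 TPM. After GA3, Cadenza had 368, 357, 335 and 335 TPM and *idd5* 30.3, 0.08, 37.7 and 35.4 TPM. Every *idd5* library was below every Cadenza library in both treatments, and replicate 2 of the GA3-treated mutant was near 0. *Rht-D1b* had 303, 355, 279 and 303 TPM in water and 308, 345, 331 and 318 TPM in GA3. Its replicate 2 was above the range of Cadenza in water and within it in GA3, and its other replicates were below the range of Cadenza in both treatments. The log2 fold change of *idd5* against Cadenza in GA3 was -4.80 (standard error 0.78, adjusted p = 0.000132, limma with Benjamini-Hochberg adjustment), and it was -3.32 without *idd5* GA3 replicate 2.

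The next members by level were TraesCS2A02G273100, TraesCS2A02G272800 and TraesCS2A02G269400. In water, TraesCS2A02G272800 had 85.3, 84.8, 89.9 and 88.8 TPM in Cadenza and 11.7, 15.1, 14 and 14.1 TPM in *idd5*. In GA3 it had 81.8, 87.1, 73.5 and 88.7 TPM in Cadenza and 7.18, 0, 8.67 and 6 TPM in *idd5*. In both treatments *idd5* was thus fully separated from Cadenza, and GA3 replicate 2 of *idd5* was at 0. For TraesCS2A02G269400, water-treated Cadenza had 65, 64.2, 72.8 and 81 TPM and water-treated *idd5* 10.8, 14.9, 11.9 and 10.4 TPM. Its GA3-treated libraries had 64.5, 60.5, 66.5 and 63.6 TPM in Cadenza and 6.01, 0, 7.61 and 6.27 TPM in *idd5*, again with replicate 2 at 0. In contrast, TraesCS2A02G273100 was detected in every *idd5* library. It had 97, 81.1, 95.9 and 101 TPM in Cadenza and 26.9, 27.5, 28.1 and 21.4 TPM in *idd5* after water, and 93.4, 79.9, 100.3 and 97.7 TPM and 18.1, 11.2, 19.8 and 21.6 TPM after GA3. Its remaining level, 27.7% in water and 19.1% in GA3, was above that of TraesCS2A02G272800 with 15.7% and 6.6% and of TraesCS2A02G269400 with 17% and 7.8%.

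The other members among the 10 with the highest Cadenza levels were TraesCS2A02G274800, TraesCS2A02G272700, TraesCS2A02G272000, TraesCS2A02G275800, TraesCS2A02G272400 and TraesCS2A02G270600. TraesCS2A02G274800 had 29.3 to 39.8 TPM in water-treated Cadenza and 5.45, 7, 6.61 and 4.7 TPM in water-treated *idd5*, and in GA3-treated *idd5* it had 1.3, 0.03, 3.59 and 3.28 TPM. For TraesCS2A02G272700 the values were 22.1 to 24 TPM in Cadenza and 2.18, 4.28, 4.1 and 2.82 TPM in *idd5* after water, with 2.32, 0, 1.92 and 1.3 TPM in *idd5* after GA3. TraesCS2A02G275800 had 18.8 to 22.1 TPM and 3.37, 3.24, 3.64 and 2.76 TPM in the water-treated genotypes, and 1.47, 0, 2.77 and 1.96 TPM in GA3-treated *idd5*. In all 3, GA3 replicate 2 of *idd5* was at or near 0. They kept 17.2%, 14.6% and 16% of Cadenza in water and 6.25%, 5.97% and 7.68% in GA3. In TraesCS2A02G270600, Cadenza had 16.1 to 18.7 TPM after water, while *idd5* had 2.82, 4.64, 2.61 and 3.47 TPM after water and 1.51, 0, 1.97 and 1.59 TPM after GA3. TraesCS2A02G272400 had 16.8 to 20.8 TPM in water-treated Cadenza, 3.61, 4, 3.99 and 4.24 TPM in water-treated *idd5* and 2.38, 0.37, 2.97 and 2.77 TPM in GA3-treated *idd5*. In *Rht-D1b*, TraesCS2A02G272400 had 20.7 to 25.1 TPM in water, a mean of 129% of Cadenza.

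**Figure D2:**
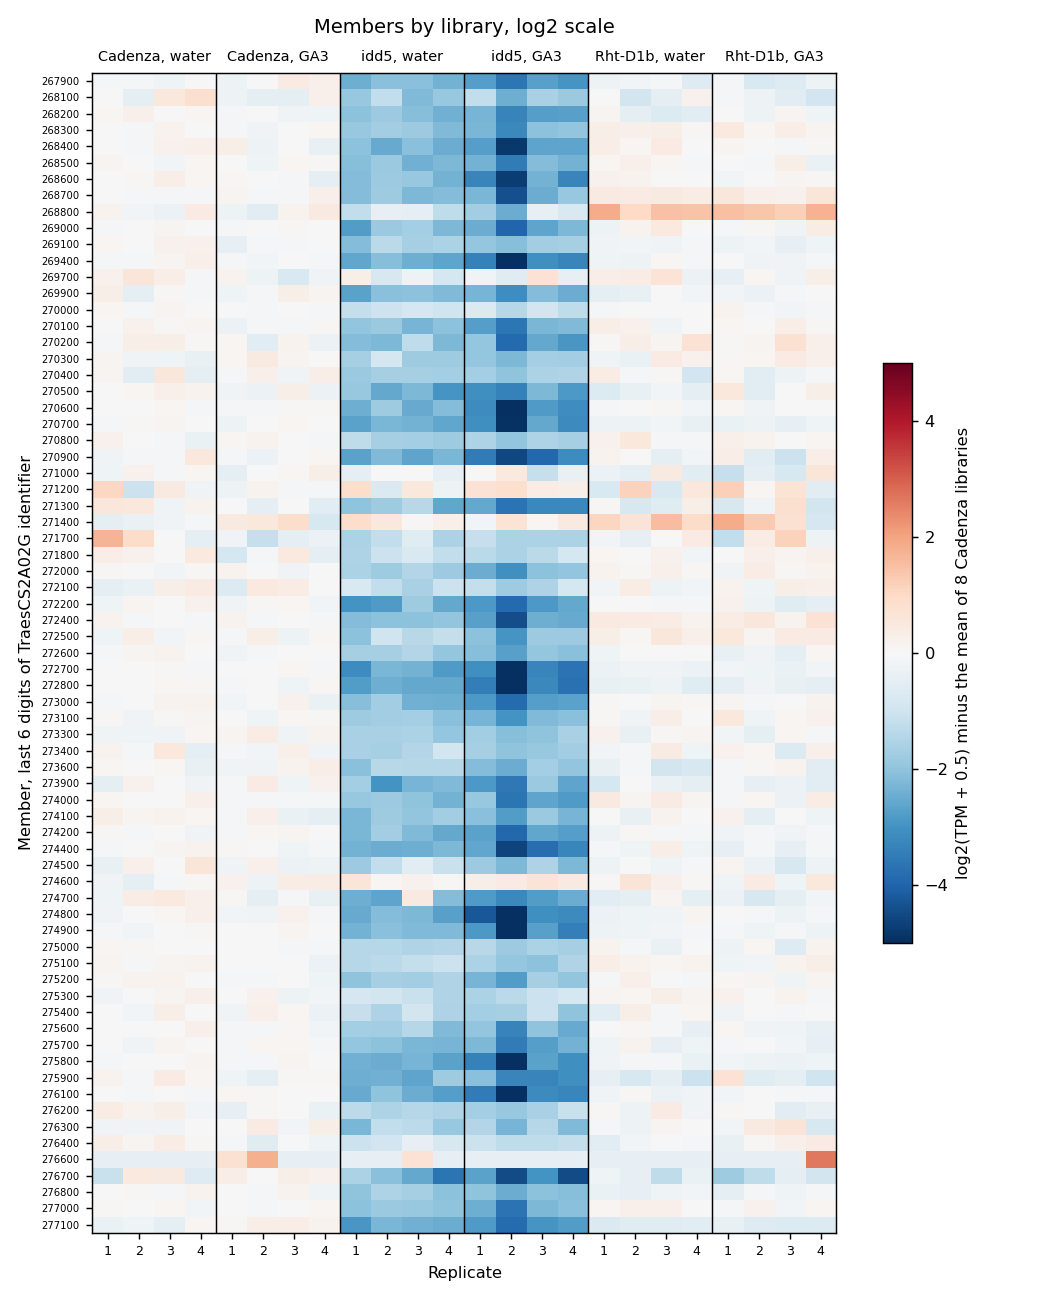
Each row is one of the 71 members in the order of identifiers and each column 1 library; the colour is log2(TPM + 0.5) minus the mean of the 8 Cadenza libraries on that scale. The 8 *idd5* columns are blue in nearly every row, replicate 2 of GA3-treated *idd5* is the darkest, and among the palest rows in *idd5* are TraesCS2A02G269700, TraesCS2A02G271000, TraesCS2A02G271200, TraesCS2A02G271400, TraesCS2A02G274600 and TraesCS2A02G276600.

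Remaining levels differed between members. Among the 37 members with at least 5 TPM in Cadenza, and leaving aside TraesCS2A02G271000 with 84.8%, the highest shares in water were those of TraesCS2A02G272500 with 36.5%, TraesCS2A02G272000 with 30.4%, TraesCS2A02G273100 with 27.7% and TraesCS2A02G272600 with 27.4%. The lowest were those of TraesCS2A02G272200 with 11.8%, TraesCS2A02G277100 with 13.4%, TraesCS2A02G270900 with 13.9%, TraesCS2A02G272700 with 14.6% and TraesCS2A02G274400 with 14.9%. TraesCS2A02G272500 had 11.7, 17.4, 12.4 and 14.3 TPM in water-treated Cadenza and 3, 6.64, 4.99 and 5.75 TPM in water-treated *idd5*, and 2.94, 1.34, 3.61 and 3.58 TPM in GA3-treated *idd5*. TraesCS2A02G272000 had 23.1, 21.5, 20.1 and 22.8 TPM, 7.06, 6.09, 7.65 and 5.77 TPM and 3.46, 2.19, 4.96 and 5.24 TPM in the same groups. Both were present in every *idd5* library. At the other extreme, TraesCS2A02G272200 had 5.99, 7.66, 7.05 and 8.27 TPM in Cadenza and 0.43, 0.55, 1.66 and 0.78 TPM in *idd5* after water. GA3-treated *idd5* had 0.52, 0, 0.53 and 0.76 TPM of this transcript. The members with the lowest shares were thus at 0 in GA3 replicate 2. TraesCS2A02G270900 had 9.86, 10.5, 10.5 and 16 TPM in water-treated Cadenza, 1.33, 1.99, 1.36 and 1.85 TPM in water-treated *idd5* and 0.52, 0, 0.27 and 0.82 TPM in GA3-treated *idd5*. For TraesCS2A02G274400 these groups had 11.2, 12, 12.8 and 13.3 TPM, 1.9, 1.67, 1.73 and 2.06 TPM and 1.5, 0, 0.38 and 0.76 TPM. In each of these members the *idd5* and Cadenza libraries did not overlap.

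Median shares were close to each other along the interval. Divided by order into 3 parts of 13, 12 and 12 members with at least 5 TPM in Cadenza, the interval had median shares of 18.5, 19.4 and 17.2% in water and 9.84, 9.16 and 7.42% in GA3, or 13.1, 11.9 and 9.89% in GA3 without replicate 2. Among these members, the 4 with the highest shares below 50% in water all lie between TraesCS2A02G272000 and TraesCS2A02G273100, where TraesCS2A02G272200 and TraesCS2A02G272700, with some of the lowest, lie too. Across the 36 members with at least 5 TPM that were lowered, the share in water and the share in GA3 replicates 1, 3 and 4 had a Spearman coefficient of 0.723, and the mean TPM in Cadenza and the share in water one of 0.267. These describe members measured in the same libraries, which are not independent, and no test was made.

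In all, 5 members escaped the lowering, with a mean in *idd5* of 50% or more of Cadenza in both treatments, and 0 members did so in 1 treatment only. They were TraesCS2A02G269700, TraesCS2A02G271000, TraesCS2A02G271200, TraesCS2A02G271400 and TraesCS2A02G274600, the 13th, 25th, 26th, 28th and 50th members in order, each with lowered members on both sides.

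The only one of them with at least 5 TPM in Cadenza was TraesCS2A02G271000. It had 6.22, 8.55, 6.68 and 7.92 TPM in Cadenza and 5.06, 7.31, 7.25 and 5.29 TPM in *idd5* after water. After GA3 it had 5.23, 7.41, 7.91 and 8.93 TPM in Cadenza and 7.44, 10.3, 2.96 and 5.44 TPM in *idd5*. The ranges overlapped in both treatments, and replicate 2 of GA3-treated *idd5*, the library with the lowest levels of other members, had the highest *idd5* value. In GA3 the log2 fold change of *idd5* against Cadenza was -0.26 (standard error 0.33, adjusted p = 0.676, limma with Benjamini-Hochberg adjustment). The member before it, TraesCS2A02G270900, kept 13.9% in water. The member after it, TraesCS2A02G271200, also escaped, and the next, TraesCS2A02G271300, kept 17%.

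The other 4 had low levels. TraesCS2A02G269700 had 1.92, 2.68, 2.14 and 1.46 TPM in water-treated Cadenza and 2.05, 0.69, 1.24 and 0.64 TPM in water-treated *idd5*, a mean of 56.3%, and this was the member just inside the limit of 50%. After GA3 it had 1.86, 1.25, 0.74 and 1.35 TPM and 1.36, 0.88, 2.99 and 1.08 TPM, a mean of 121%, with overlapping ranges. For TraesCS2A02G271200 the water values were 1.66, 0, 0.94 and 0.44 TPM in Cadenza and 1.46, 0.14, 1.03 and 0.39 TPM in *idd5*, and the GA3 values 0.38, 0.7, 0.49 and 0.51 TPM and 1.24, 1.36, 0.86 and 0.8 TPM. All GA3-treated *idd5* libraries were above all GA3-treated Cadenza libraries here, by 0.61 on the log2 scale (standard error 0.46), which did not pass the test (adjusted p = 0.428, limma with Benjamini-Hochberg adjustment). TraesCS2A02G271400 had 0.81, 0.96, 1.11 and 1.24 TPM in water-treated Cadenza, 2.84, 2.09, 1.4 and 1.65 TPM in water-treated *idd5* and 3.37, 2.35, 4.77 and 2.94 TPM in water-treated *Rht-D1b*. Both mutants were thus above Cadenza in each library in water. In GA3 the values of TraesCS2A02G271400 were 1.99, 2.09, 2.81 and 0.55 TPM in Cadenza, 1.17, 2.43, 1.46 and 1.96 TPM in *idd5* and 6.05, 4, 2.58 and 0.51 TPM in *Rht-D1b*, and the groups overlapped. TraesCS2A02G274600 had 0.84, 0.6, 0.96 and 1.1 TPM in Cadenza and 1.82, 1.16, 1.28 and 1.08 TPM in *idd5* after water, against 1.26, 0.79, 1.47 and 1.49 TPM and 1.36, 1.56, 1.98 and 1.58 TPM after GA3. None of these 4 had a lower value in *idd5* GA3 replicate 2 than in all the other *idd5* libraries.

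**Figure D3:**
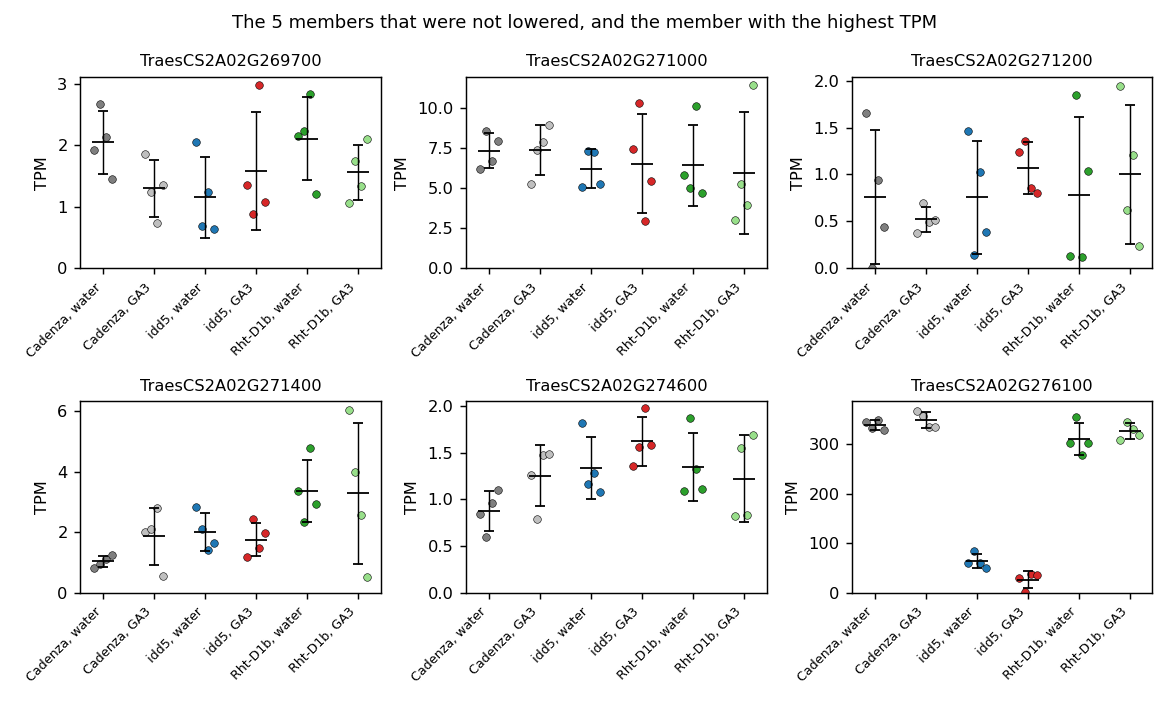
TPM per library (points) with mean and SD (bars, n = 4) for the 5 members that escaped the lowering and, in the last panel, for TraesCS2A02G276100, in the 6 groups of genotype and treatment. The *idd5* points of the 5 genes lie within or above the range of the other genotypes in most libraries, while those of TraesCS2A02G276100 reach at most 83.7 TPM against at least 279 TPM elsewhere.

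Just outside the limit of 50% were TraesCS2A02G268800, with 46.5% of Cadenza in water and 33.7% in GA3, and TraesCS2A02G270000, with 40.4% and 43.1%. TraesCS2A02G270000 had 4.2, 3.66, 4.29 and 3.97 TPM in water-treated Cadenza and 1.4, 1.62, 1.84 and 1.66 TPM in water-treated *idd5*. After GA3 it had 3.78, 3.58, 3.87 and 3.55 TPM and 2.14, 1.14, 1.78 and 1.31 TPM. The *idd5* and Cadenza libraries of TraesCS2A02G270000 did not overlap in either treatment.

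By fitted log2 fold change, TraesCS2A02G268800 was the member in which *Rht-D1b* differed most from Cadenza, although by the share of Cadenza in water TraesCS2A02G271400, with 326%, was above TraesCS2A02G268800, with 299%. It had 2.64, 2.06, 1.75 and 3.24 TPM in Cadenza, 0.68, 1.62, 1.56 and 0.65 TPM in *idd5* and 9.64, 5.14, 7.23 and 6.97 TPM in *Rht-D1b* after water. The GA3 values were 1.83, 1.46, 2.68 and 3.27 TPM, 0.34, 0, 1.61 and 1.16 TPM and 7.51, 6.83, 5.93 and 8.94 TPM. Each *Rht-D1b* library was above each library of the other genotypes in the same treatment, and the mean of *idd5* was 15.6% of that of *Rht-D1b* in water and 10.6% in GA3. In GA3, *Rht-D1b* had a log2 fold change of 1.51 against Cadenza (standard error 0.34, adjusted p = 0.00351, limma with Benjamini-Hochberg adjustment), a call that was lost without Cadenza GA3 replicate 1, without Cadenza GA3 replicate 2 or without *Rht-D1b* GA3 replicate 4. In water the log2 fold change was 1.40 (standard error 0.34) with an adjusted p of 0.0105 in the same fit, just short of the threshold of 0.01.

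In the median over the members, *Rht-D1b* was near Cadenza, while single members differed. A call here is an adjusted p under 0.01 from limma on log2(TPM + 0.5), where the Benjamini-Hochberg adjustment covers all 63241 gene models. The fit takes a shared spread per gene from all groups, so *idd5* GA3 replicate 2 also enters the standard errors of *Rht-D1b* against Cadenza. For the members, few calls therefore do not show a smaller difference than in other gene models. In water 0 members were called between *Rht-D1b* and Cadenza, against 3.92% of all gene models, and 9 had an unadjusted p under 0.05, against 22.1%. In GA3 2 were called, against 8.02% of all gene models. These were TraesCS2A02G268800, higher, and TraesCS2A02G277100, lower, with a log2 difference of -0.82 (standard error 0.18, limma adjusted p = 0.00348). TraesCS2A02G277100 had 6.99, 8.41, 8.64 and 7.6 TPM in GA3-treated Cadenza and 5.07, 4.08, 3.94 and 3.95 TPM in GA3-treated *Rht-D1b*, which did not overlap. Some members without a call were fully separated too. TraesCS2A02G276700 had 13.5, 10.8, 13 and 12.4 TPM in GA3-treated Cadenza and 2.73, 4.15, 7.35 and 5.39 TPM in GA3-treated *Rht-D1b*, or 39.4%. TraesCS2A02G272700 was lower in *Rht-D1b* in water (85.6%) and GA3 (85.8%), and TraesCS2A02G272800 in water (74.2%). TraesCS2A02G268700 was higher in water (141%). The calls rest on single libraries in part, since 0 members were called without Cadenza GA3 replicate 2 or without *Rht-D1b* GA3 replicate 4. The median log2 fold change over the 71 members was -0.10 in water and -0.02 in GA3, beside -0.07 and -0.04 over all gene models. It was below 0 in 47 members and above 0 in 23 in water, and in 38 and 33 in GA3. Over all gene models, 61.2% were below 0 in water and 56.1% in GA3.

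For *idd5* against Cadenza, the median log2 fold change over the members was -1.96 in water and -2.39 in GA3, beside -0.07 over all gene models in both. In GA3 64 of the 71 were called lower, against 4.84% of all gene models. Against *Rht-D1b*, 63 members were called lower in *idd5* in GA3, beside 0.381% of all gene models, and the median log2 fold changes were -1.79 in water and -2.50 in GA3. Without *idd5* GA3 replicate 2 these calls were 62 and 60, against 2180 and 161 of all 63241 gene models. The comparisons with Cadenza and with *Rht-D1b* share the *idd5* libraries. The GA3 libraries did not set the ends of the interval, but their values were known when the members were chosen, so nothing is read from these counts. With full separation as the measure, the 4 *idd5* libraries lay below the 4 of Cadenza for 63 members in GA3, against 11.2% of all gene models. For 63 members GA3 replicates 1, 3 and 4 lay below the 4 Cadenza libraries, against 8422 of all 63241 gene models. The 7 members not called in GA3 were the 5 that escaped, TraesCS2A02G276600 and TraesCS2A02G271700. TraesCS2A02G271700 had 0.85, 0.18, 0.59 and 0.72 TPM in GA3-treated Cadenza and 0.17, 0, 0 and 0 TPM in GA3-treated *idd5*, with a log2 difference of -0.97 (standard error 0.43, limma adjusted p = 0.141). TraesCS2A02G276600 was listed at 0 in 20 of 24 libraries, with 0.63 and 1.77 TPM in GA3-treated Cadenza replicates 1 and 2, 0.60 TPM in water-treated *idd5* replicate 3 and 3.69 TPM in GA3-treated *Rht-D1b* replicate 4.

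The level that remained was next compared between libraries. Over the 37 members at 5 TPM or more in Cadenza, the median share of Cadenza was 16.6, 21.6, 18 and 15.2% in replicates 1 to 4 of water-treated *idd5*, or 17.9% ± 2.76 (SD, n = 4). In GA3-treated *idd5* it was 10.9, 0, 11.9 and 9.87%, or 8.18% ± 5.52 (SD, n = 4), and 10.9% ± 1.03 (SD, n = 3) without replicate 2. All GA3 libraries of *idd5* thus lay below all its water libraries. The medians in *Rht-D1b* were 93.4% ± 3.94 in water and 93.3% ± 3.45 in GA3 (SD, n = 4), and no *Rht-D1b* library was below 88.7%. The quartiles within an *idd5* library were 15.1 and 19.9% in water replicate 1 and 8.68 and 15.9% in GA3 replicate 1. In water, they were 4.79 to 7.41 percentage points apart in the *idd5* libraries and 6.38 to 14.4 in the Cadenza libraries. Relative to the median of the library, this spread was wider in *idd5* than in Cadenza.

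**Figure D4:**
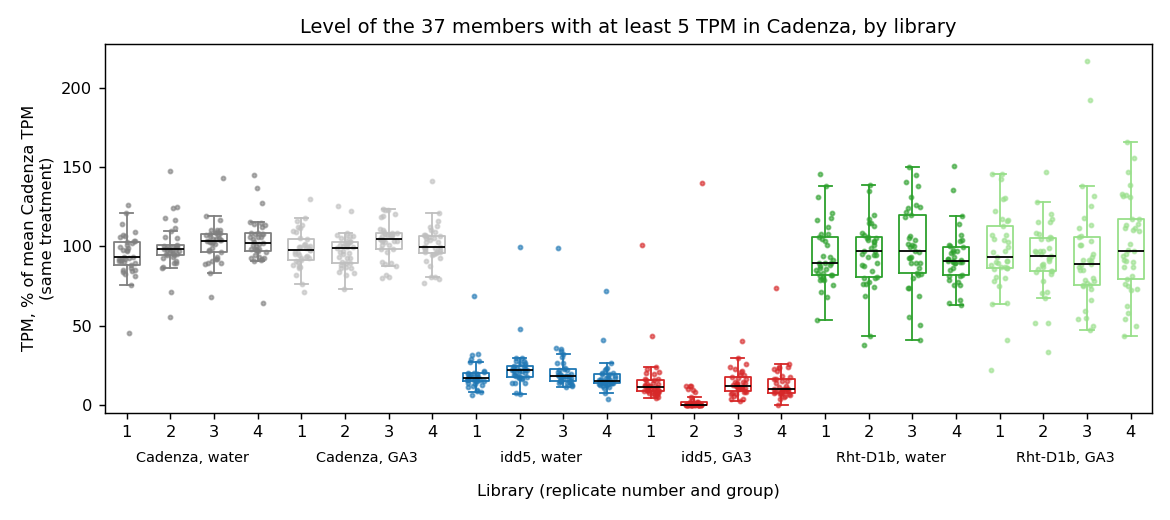
TPM of the 37 members with at least 5 TPM in Cadenza, as a percentage of the Cadenza mean in the same treatment (y axis), for each of the 24 libraries (x axis); points are members, boxes show the quartiles with the median as a line, and whiskers reach the last point within 1.5 box lengths. The *idd5* medians lie between 15.2 and 21.6% in water and between 0 and 11.9% in GA3, and the highest point in each *idd5* library, at 140% in GA3 replicate 2, is TraesCS2A02G271000.

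The comparison of GA3 with water within *idd5* did not itself choose the members, but its water libraries were among those that set the ends of the interval. Its tests are therefore given as a description. The mean of 65 of the 71 members was lower in GA3-treated than in water-treated *idd5*, against 57.1% of all gene models. By limma's test 0 members, and 0 of all 63241 gene models (0.0%), were called, while 43 members had an unadjusted p under 0.05, all of them lower in GA3, against 4.83% of all gene models. The median log2 fold change was -0.55, beside -0.03 over all gene models. For 17 members the 4 GA3 libraries were all below the 4 water libraries, against 2.33% of all gene models. For replicates 1, 3 and 4 alone, 17 members had all 3 below the 4 water libraries, against 3.93%. Without replicate 2, 3 members were called lower in GA3, namely TraesCS2A02G269400, TraesCS2A02G272800 and TraesCS2A02G276100, each of which is among the 4 with the highest levels, and these were the 3 gene models called in that fit over the whole table (0.00474%). In the same fit 32 members had an unadjusted p under 0.05, all lower, against 4.23% of all gene models. The median log2 fold change over the members was -0.33, beside -0.02 over all gene models. Without replicate 2 the mean of 65 members was lower in GA3, against 55.0% of all gene models. Exact two-sided permutation tests with all libraries gave p = 0.0286, the smallest value that 4 against 4 libraries can give, for 11 of the 26 named members in this comparison, among 156 such tests in all. Some of these members were named by their *idd5* values in the libraries compared. No share over all gene models is given for these tests, so nothing is read from this count. In TraesCS2A02G276100 the GA3-treated mutant had 25.9 TPM and the water-treated mutant 63.6 TPM on average, over all 4 replicates.

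The response to GA3 was also tested in the other genotypes. Between GA3 and water, 0 members were called in Cadenza, against 0.0965% of all gene models, and 0 in *Rht-D1b*, against 0.0% (limma, Benjamini-Hochberg adjustment). An unadjusted p under 0.05 was found for 4 members in Cadenza, against 8.77% of all gene models, and 0 in *Rht-D1b*, against 5.86%. Median log2 fold changes were -0.07 and -0.01. Through the shared spread, *idd5* GA3 replicate 2 also enters these standard errors, so nothing is read from counts below those of all gene models. The difference between the response of *idd5* and that of Cadenza was tested directly as an interaction, which called 0 members and 0.0% of all gene models. The interaction includes the water-treated *idd5* and Cadenza libraries that set the ends of the interval, so it too is a description. The smallest adjusted p over the members was 0.372, for TraesCS2A02G277100, and 25 members had an unadjusted p under 0.05, all with a more negative response in *idd5*, against 3.17%. The median of this difference was -0.55 on the log2 scale, beside 0 over all gene models. Without *idd5* GA3 replicate 2 the interaction also called 0 members, with a smallest adjusted p of 0.131 (limma), and 19 members had a more negative response at an unadjusted p under 0.05, against 2.93%, and 1 a less negative one, with a median of -0.27 beside 0.01 over all gene models.

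Replicate 2 of GA3-treated *idd5* had 40 of the 71 members at 0 TPM. The other GA3-treated *idd5* libraries had 1 to 5 members at 0, the water-treated *idd5* libraries 0 to 2, the Cadenza libraries 0 to 2 and the *Rht-D1b* libraries 0 to 1. Outside the interval, 12 of 28873 gene models with at least 5 TPM in Cadenza were at 0 in replicate 2, and 2 to 26 in the other 23 libraries. For 56 of the 71 members replicate 2 was below each of the other 7 *idd5* libraries, against 17.0% of all gene models. Its sum over the members was 38.1 TPM, against 128, 146 and 135 TPM in replicates 1, 3 and 4. In the flanking gene models with at least 5 TPM this library had a median of 93.9% of Cadenza.

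Some members were not at 0 in replicate 2. Of the 37 with at least 5 TPM in Cadenza, 22 were at 0 there, 3 were above 0 but under 1% of Cadenza, and 12 were at 1% or more. Besides TraesCS2A02G271000, the highest were TraesCS2A02G272600 with 12.1% of Cadenza, TraesCS2A02G273100 with 12%, TraesCS2A02G268100 with 11.9%, TraesCS2A02G272000 with 9.95% and TraesCS2A02G272500 with 9.56%. TraesCS2A02G268100 had 4.01, 3.5, 3.39 and 5.94 TPM in GA3-treated Cadenza and 1.82, 0.5, 1.24 and 1.01 TPM in GA3-treated *idd5*. It was a member whose share in GA3, 27.1%, was above that in water, 17.8%. TraesCS2A02G272600 had 10.1, 10.7, 11.9 and 11.9 TPM and 2.26, 1.35, 2.64 and 2.36 TPM in GA3, and 10.7, 12.8, 13.1 and 11.9 TPM and 3.37, 3.38, 3.86 and 2.68 TPM in water. TraesCS2A02G273100, with 11.2 TPM, gave the largest amount of any member in that library.

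Members with a higher share of Cadenza in replicate 2 also tended to have a higher share in the other *idd5* libraries. The 22 members at 0 there had a median share of 9.59% (quartiles 7.90 and 10.7%) in GA3 replicates 1, 3 and 4, and of 16.8% (quartiles 15 and 19.0%) in water. The 12 members at 1% or more, TraesCS2A02G271000 among them, had medians of 18.9% (quartiles 15.1 and 22.3%) and 20.5% (quartiles 18.5 and 28.4%). Over the 36 lowered members with at least 5 TPM, which leave TraesCS2A02G271000 out, the share in replicate 2 had a Spearman coefficient of 0.717 with that in GA3 replicates 1, 3 and 4 and of 0.522 with that in water, given as a description across members of the same libraries. Both GA3 shares use the same Cadenza mean, which by itself can add to the coefficient of 0.717. When the share in replicate 2 was subtracted from that in the other 3 GA3 libraries, the interquartile range over these 36 members went from 6.09 to 3.71 percentage points. Subtracted from the share in water, it went from 3.58 to 3.98 percentage points.

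**Figure D5:**
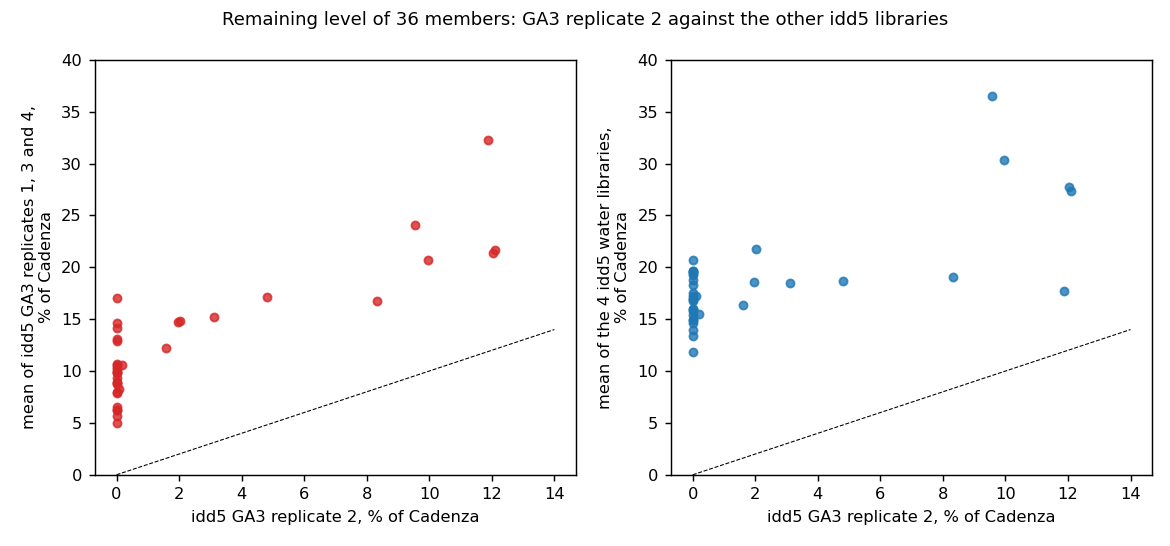
Share of Cadenza in *idd5* GA3 replicate 2 (x axis, %) against the mean share in GA3 replicates 1, 3 and 4 (left) and in the 4 water libraries (right) for 36 members with at least 5 TPM in Cadenza, TraesCS2A02G271000 left out; the dashed line marks equal shares. All 36 points lie above the line, and the 22 at 0 on the x axis spread from 5 to 17.1% on the left.

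Of the 34 members with less than 5 TPM in Cadenza, 29 were under 50% of Cadenza in both treatments. The median share of the 34 was 20.1% in water and 10.5% in GA3, beside 17.8% and 7.97% for the 37 members with higher levels. Without GA3 replicate 2 the medians in GA3 were 12.7% and 10.6%. Examples are TraesCS2A02G270400, with 1.71, 0.88, 2.45 and 0.94 TPM in water-treated Cadenza and 0.06, 0.13, 0.13 and 0.12 TPM in water-treated *idd5*, and TraesCS2A02G275000, with 1.39, 1.35, 1.32 and 1.25 TPM and 0.16, 0.17, 0.13 and 0.14 TPM. The separation was complete in both. Among these low members, TraesCS2A02G274700 is named after its values were seen: it had 3.58, 5.64, 6.29 and 5.25 TPM in water-treated Cadenza and 0.38, 0.28, 5.97 and 0.57 TPM in water-treated *idd5*, so that replicate 3 alone was at the Cadenza level. Its GA3-treated *idd5* libraries had 0.17, 0.02, 0.2 and 0.37 TPM. The 20 gene models of the interval that did not pass the filter included 8 at 0 TPM in every library. Of the other 12, 9 had a lower mean in *idd5* than in Cadenza, 12 were at 0 in *idd5* GA3 replicate 2 and 10 were at 0 in every GA3-treated *idd5* library. These 12 were near 0 in Cadenza too, with a mean of at most 0.375 TPM, and most were at 0 in some Cadenza libraries. No share over other gene models of this level is given, so nothing is read from these counts.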

How the data were processed

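The authors trimmed paired-end reads with Trimmomatic 0.39, quantified them with Kallisto (version not given in the sources used here) against wheat gene models and deposited TPM values in a table of 107891 gene models with 2 decimals. The methods and the labels name different releases of the gene models, so identifiers are printed as in the table, without coordinates or sequences. The authors' contrasts used DESeq2 on counts, not used here. Depth is unknown from TPM.

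Groups came from the labels. Members and comparison lists were chosen with earlier results of these data known. Log2(TPM + 0.5) of the 63241 gene models with at least 0.5 TPM in at least 4 of 24 libraries was fitted with limma 3.58.1 in R 4.3.3, as 6 group means, with empirical Bayes variance moderation (trend included) and Benjamini-Hochberg adjustment. Calls used an adjusted p under 0.01. Fold changes on this scale understate changes of low genes. The fit was tested on simulated data. Shares, exact permutation tests and figures used Python 3.11.15.

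Members named were the first and last, those that escaped, the 10 with the highest level, the 5 highest and 5 lowest shares in water and the 5 highest in GA3 replicate 2 among those of at least 5 TPM, and those called in *Rht-D1b* or GA3 comparisons; others were named after their values were seen. Alternatives were pseudocounts of 0.1 and 1, no filter or 2 TPM, median-ratio scaling, fits of only the groups compared, no trend, an adjusted p of 0.05, the replicate number as a block, other level limits and each library left out; some summaries without *idd5* GA3 replicate 2 were added after seeing the data.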

Additional observations from a re-analysis of the deposited data

Results flagged for a closer look

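Within groups of 4 libraries, 6 of 168 sets of values had a library whose gap to its nearest neighbour was above Dixon's critical value. Chance alone gives about 1 in 20. The sum over the members was far lower in *idd5* GA3 replicate 2, at 38.1 TPM, than in the other 3 libraries of its group. Single values far from their group were 16.0 TPM of TraesCS2A02G270900 in water-treated Cadenza replicate 4, which was high, 21.4 TPM of TraesCS2A02G273100 in water-treated *idd5* replicate 4, which was low, and 5.07 TPM of TraesCS2A02G277100 in GA3-treated *Rht-D1b* replicate 1, which was high. TraesCS2A02G276600 was above 0 in 1 of 4 libraries in water-treated *idd5*, at 0.60 TPM in replicate 3, and in GA3-treated *Rht-D1b*, at 3.69 TPM in replicate 4. Depth, tissue and handling of these libraries are not given, and their part in the values was not tested.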

How the results depend on the processing

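Called members of *idd5* against Cadenza in GA3, 64, moved by less than 1.5 times under every alternative run, and each library left out gave 62 to 64. Against *Rht-D1b* in GA3 they were 60 to 63 with a library left out, but 37 in a fit of only the groups compared. The number of all gene models called in that fit is not given here, so nothing about the members is read from this drop. Its cause was not tested. *Rht-D1b* against Cadenza in water, with 0 calls, had 1 with a pseudocount of 1, a filter of 2 TPM, median-ratio scaling or the replicate block, 2 at an adjusted p under 0.05, and 3 in a fit of only the groups compared. In GA3 it had 2 calls, 0 with a pseudocount of 0.1, and 0 to 2 with a library left out. A fit of only the groups compared gave 3 in GA3, with TraesCS2A02G276700 added. GA3 against water in *idd5* had 0 calls and 0 to 3 with a library left out, 3 being without *idd5* GA3 replicate 2. The members at 0 in that library, 22 at a minimum of 5 TPM in Cadenza, were 38 at 1 TPM and 13 at 10 TPM. The remaining level was 16.6 to 18.7% in water and 6.94 to 10.9% in GA3 with a library left out, and 4 to 5 members escaped.

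Same-numbered libraries of different groups had a median correlation of 0.02 (-0.162 to 0.155), beside -0.007 (-0.214 to 0.176) for libraries with different numbers. No pairing by number was seen in this measure, which cannot exclude one. With the replicate block, 64 members were called for *idd5* against Cadenza in GA3, and 63 against *Rht-D1b*, the same members as without it. The share of all gene models called with the block is not given here.

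Of 490 values of single members, 455 kept direction and call, 22 lost the call, 6 gained one and 7 reversed, all 7 in members that escaped, for *idd5* against Cadenza in GA3. The log2 fold change of TraesCS2A02G271400 was -0.002 with a pseudocount of 1 and -0.33 to 0.22 with a library left out. That of TraesCS2A02G269700 ranged from -0.14 to 0.31 and that of TraesCS2A02G271000 from -0.50 to 0.046. The cause of these changes was not tested.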
